A study of Mus musculus with 8 samples.

Results

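The 10 genes described here, Xcr1, Clec9a, Wdfy4, Naaa, Snx22, Cd36, Gcsam, Anpep, Shtn1 and Ckb, belong to the identity and effector programme of the type 1 classical dendritic cell (cDC1). They were chosen by name, and all 10 were among the 19938 genes for which the platform annotation gives a probe set of exactly 1 gene, with 11 probe sets between them (Wdfy4 has 2). All 10 also passed the filter on low signal that left 13356 genes for the tests. Xcr1 and Cd36 passed it only through the pre-CD8 DC arrays, and Snx22 through these and 1 Zeb2hi array, so that without the pre-CD8 DC arrays none of the 3 would have passed. Their differences between pre-CD8 DCs and the CDPs were thus partly fixed by the filter.

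Affymetrix arrays read the transcripts of 3 cell populations sorted by flow cytometry from mouse bone marrow. All mice were heterozygous for a Zeb2-GFP fusion reporter, in which green fluorescent protein is joined to Zeb2, and the labels give no age, sex or wild-type control. Pre-CD8 DCs, the committed marrow precursors of cDC1s, were measured on 2 arrays. Common DC progenitors (CDPs), which give rise to all DC lineages, were split by the reporter into Zeb2low CDPs with 3 arrays and Zeb2hi CDPs with 3 arrays, and the labels name no other sort marker. The study sought signatures of these progenitors and their sequence along development. The labels leave unsaid whether each array had its own mice and its own sort. The p-values therefore measure the spread between these arrays, and that spread may be technical.

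The cDC1 takes up dying cells and presents their antigens to CD8 T cells. Its receptor Xcr1 binds the chemokine Xcl1 made by T and NK cells, Clec9a recognises the actin skeleton exposed by dead cells, and Wdfy4 is a large BEACH-domain protein needed to cross-present cell-bound antigen. The transcription factors Irf8, Batf3, Id2 and Nfil3 set up this cell, and Zeb2 opposes it.

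Zeb2 itself followed the labels, with log2 signals of 6.93 and 6.53 in pre-CD8 DCs, 7.49 to 7.86 in Zeb2low CDPs and 9.05 to 9.45 in Zeb2hi CDPs. Flt3, the cytokine receptor of DC progenitors, lay between 9.07 and 9.63 on all 8 arrays. Cd34, a marker of early progenitors, averaged 6.66 in pre-CD8 DCs, 8.80 in Zeb2low CDPs and 10.25 in Zeb2hi CDPs. Kit, another progenitor marker, ran the other way, with means of 8.90, 8.29 and 7.87 in the same groups. The 2 pre-CD8 DC arrays were less alike (r = 0.937 across genes) than array 2 of that group was to any Zeb2low array (0.942 to 0.966). Their values are therefore given one by one.

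The windows before the start sites of 4 of the genes are shown, for a pair that was higher in Zeb2low than in Zeb2hi CDPs (Anpep and Naaa) and a pair for which that comparison did not pass (Xcr1 and Clec9a). Sequences are the 250 bases before the start given by RefSeq, build GRCm38.p6, read 5′ to 3′, and capitals mark each CANNTG, the E-box core bound by E proteins and, in some forms, by Zeb2. The Anpep window is chr7:79848211-79848460 on the minus strand, that of Naaa chr5:92278182-92278431 on the minus strand, that of Xcr1 chr9:123862030-123862279 on the minus strand and that of Clec9a chr6:129408612-129408861 on the plus strand.

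Anpep: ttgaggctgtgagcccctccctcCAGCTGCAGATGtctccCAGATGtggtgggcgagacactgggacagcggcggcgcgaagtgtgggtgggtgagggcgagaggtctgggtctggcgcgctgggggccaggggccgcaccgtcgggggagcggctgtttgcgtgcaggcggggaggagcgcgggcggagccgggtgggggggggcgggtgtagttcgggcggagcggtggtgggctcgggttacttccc

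Naaa: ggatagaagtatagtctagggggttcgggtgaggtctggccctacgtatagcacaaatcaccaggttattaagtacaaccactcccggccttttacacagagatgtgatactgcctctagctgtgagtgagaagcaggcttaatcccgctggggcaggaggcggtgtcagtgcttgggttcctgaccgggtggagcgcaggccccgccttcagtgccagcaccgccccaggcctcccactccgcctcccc

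Xcr1: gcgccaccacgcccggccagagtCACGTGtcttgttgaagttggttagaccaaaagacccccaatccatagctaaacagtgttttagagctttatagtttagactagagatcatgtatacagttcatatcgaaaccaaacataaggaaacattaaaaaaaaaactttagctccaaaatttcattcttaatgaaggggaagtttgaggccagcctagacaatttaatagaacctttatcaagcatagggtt

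Clec9a: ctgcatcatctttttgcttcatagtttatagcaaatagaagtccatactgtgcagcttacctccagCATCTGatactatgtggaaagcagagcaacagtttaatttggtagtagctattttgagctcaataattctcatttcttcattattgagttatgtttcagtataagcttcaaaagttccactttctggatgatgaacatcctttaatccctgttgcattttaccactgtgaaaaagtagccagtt

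The promoter table held 9 of the 10 genes (not Shtn1), in 10 windows since Snx22 has 2. CANNTG, a search added after the other motifs were run, occurred in 8 of these 10 windows of 250 bases, against 66.2% of 32851 windows in the table. It occurred 3 times before Anpep, 4 times before Wdfy4, 1 time each before Xcr1, Clec9a, Cd36 and Gcsam and in both windows of Snx22, and 0 times before Naaa and Ckb. The windows of Snx22 overlap and hold the same site, so that by gene the motif was found before 7 of 9. Both strands of the full windows, which run 50 bases past the start, were also searched for the Zeb2-type E-box CACCTG, the AP-1 core TGANTCA, the ETS-IRF composite element, the Nfil3-type TTANGTAA and the repeated interferon-response half-site bound by IRFs. None of these was found in any of the 10 windows, while 20.2%, 7.81%, 2.72%, 2.32% and 3.44% of all windows held them. These letters are thus absent from these windows only. The share of G and C in the 250 bases was 72.8% for Anpep, 62.8% for Ckb, 59.2% for Naaa and 54.4% for Wdfy4. It was 35.6% for Clec9a, 38.8% for Xcr1, 43.2% for Cd36 and 51.6% for Gcsam, and 62.0% and 63.6% for the 2 windows of Snx22.

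All 10 genes were higher in pre-CD8 DCs than in Zeb2hi CDPs. Anpep, Shtn1, Naaa, Ckb and Wdfy4 were also higher in Zeb2low CDPs than in Zeb2hi CDPs. Xcr1, Clec9a, Snx22, Cd36 and Gcsam did not pass that comparison, and their mean signal in Zeb2low CDPs lay at most 0.70 on the log2 scale from that in Zeb2hi CDPs. Between Zeb2low and Zeb2hi CDPs 5 of 10 genes were thus higher and 0 lower, where 4.5% of all genes tested were higher and 10.3% lower. Against Zeb2low CDPs 6 of 10 genes were higher in pre-CD8 DCs and 0 lower, where 0.337% of all genes were higher and 0.217% lower, and 1 of the 6, Cd36, had passed the filter only through the pre-CD8 DC arrays. Against Zeb2hi CDPs 10 of 10 were higher, where 6.51% of all genes were higher and 11.1% lower. That count includes Xcr1, Cd36 and Snx22, which would not have passed the filter without the pre-CD8 DC arrays. The genes were chosen with these data in view, so the counts describe them.

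**Figure D1:**
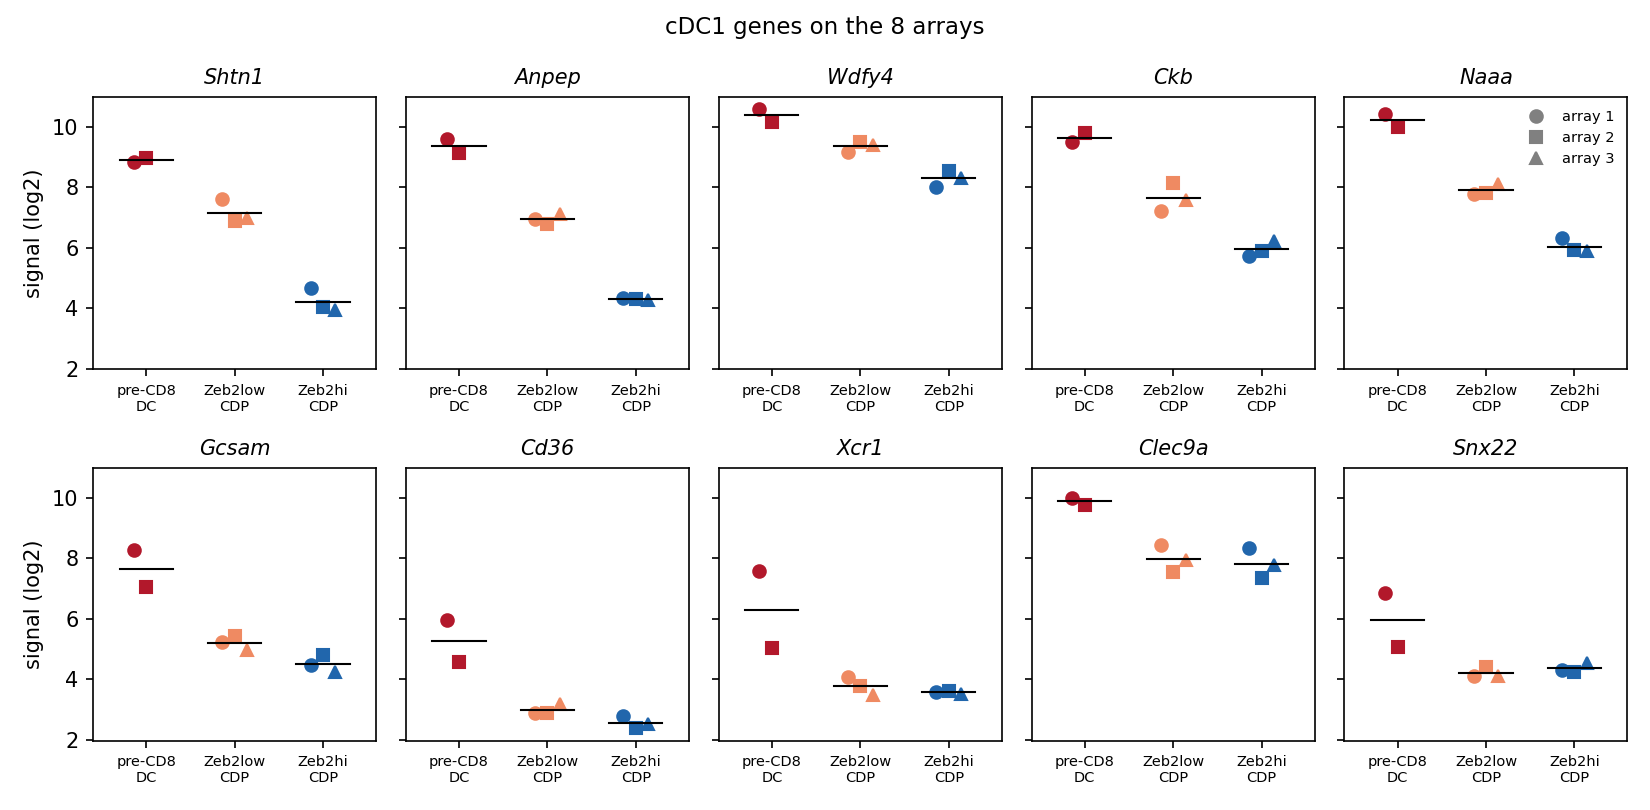
Log2 signal of the 10 genes on each array (y axis), by group (x axis). Points are single arrays, with the shape giving the array number, and lines are group means. Anpep, Shtn1, Wdfy4, Ckb, Naaa, Gcsam and Cd36 form 3 separate levels, while Xcr1, Clec9a and Snx22 overlap between Zeb2low and Zeb2hi CDPs.

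Anpep, the membrane aminopeptidase N (CD13), had log2 signals of 9.58 and 9.13 in pre-CD8 DCs, 6.95, 6.77 and 7.10 in Zeb2low CDPs, and 4.34, 4.31 and 4.29 in Zeb2hi CDPs. The 3 groups did not overlap, and in Zeb2hi CDPs the signal stayed below the median of every array. Anpep was 6.18-fold higher in Zeb2low than in Zeb2hi CDPs (log2 difference 2.63 ± 0.16, SE, adjusted p = 0.00018). It was a further 5.34-fold higher in pre-CD8 DCs than in Zeb2low CDPs (2.42 ± 0.18, adjusted p = 0.00134). An adjusted p here is limma's value over all 13356 genes, with 0.05 as the threshold.

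Shtn1 encodes shootin 1, known from neurons as a link between actin flow and adhesion. Its signals were 8.82 and 8.95 in pre-CD8 DCs, 7.60, 6.87 and 6.97 in Zeb2low CDPs, and 4.68, 4.05 and 3.93 in Zeb2hi CDPs. It showed the largest difference between the CDP fractions among the 10 genes, 7.59-fold (2.92 ± 0.25, adjusted p = 0.000615), with no overlap. Its difference between pre-CD8 DCs and Zeb2low CDPs was 1.74 ± 0.28 (adjusted p = 0.0391). A block on the replicate number, used here and below, treats the pre-CD8 DC numbers as matched to the CDP numbers, which was not checked. The Shtn1 call over Zeb2low CDPs rested on the full set of arrays. It was lost without pre-CD8 DC array 1 (adjusted p = 0.194) or 2 (0.0734), Zeb2hi array 2 (0.0853) or 3 (0.0671), or Zeb2low array 2 (0.102) or 3 (0.153), and when the replicate number entered the 8-array fit as a block (adjusted p = 0.0883).

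Naaa, a lysosomal hydrolase of N-acylethanolamine lipids, had signals of 10.43 and 9.99 in pre-CD8 DCs, 7.78, 7.79 and 8.09 in Zeb2low CDPs, and 6.31, 5.91 and 5.89 in Zeb2hi CDPs. The groups were again separate. Naaa was 3.61-fold higher in Zeb2low than in Zeb2hi CDPs (1.85 ± 0.19, adjusted p = 0.00134) and 4.98-fold higher in pre-CD8 DCs than in Zeb2low CDPs (2.32 ± 0.21, adjusted p = 0.00296). Naaa and Anpep were the only members whose calls in both comparisons held in all 8 fits that each left out 1 array.

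Ckb, the brain-type creatine kinase that buffers ATP, had signals of 9.48 and 9.79 in pre-CD8 DCs, 7.23, 8.14 and 7.59 in Zeb2low CDPs, and 5.73, 5.89 and 6.22 in Zeb2hi CDPs. It was 3.25-fold higher in Zeb2low than in Zeb2hi CDPs (1.70 ± 0.24, adjusted p = 0.00473), with no overlap. Between pre-CD8 DCs and Zeb2low CDPs the difference was 1.98 ± 0.27 (adjusted p = 0.0219). This call was lost without pre-CD8 DC array 1 (adjusted p = 0.108) or 2 (0.058), Zeb2hi array 2 (0.0591) or Zeb2low array 3 (0.103), and with that block (adjusted p = 0.0523).

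Wdfy4 had a high signal in every group, at 10.58 and 10.16 in pre-CD8 DCs, 9.17, 9.48 and 9.41 in Zeb2low CDPs, and 8.01, 8.53 and 8.32 in Zeb2hi CDPs. No array of one group overlapped another group. It was 2.09-fold higher in Zeb2low than in Zeb2hi CDPs (1.07 ± 0.19, adjusted p = 0.00962) and 4.25-fold higher in pre-CD8 DCs than in Zeb2hi CDPs (2.09 ± 0.21, adjusted p = 0.000683). Its difference between pre-CD8 DCs and Zeb2low CDPs was of like size (1.02 ± 0.21) but did not pass (adjusted p = 0.0898). The dimmer of its probe sets had differences of 0.80 ± 0.27 between the CDP fractions and 1.38 ± 0.30 between pre-CD8 DCs and Zeb2low CDPs.

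Clec9a was also well above the array medians in all groups. Its signals were 10.00 and 9.77 in pre-CD8 DCs, 8.46, 7.55 and 7.95 in Zeb2low CDPs, and 8.36, 7.34 and 7.79 in Zeb2hi CDPs. The arrays of the CDP fractions overlapped, with a difference of 0.16 ± 0.30 (adjusted p = 0.726) and a 95% interval of -0.51 to 0.83. In both fractions array 1 was the highest and array 2 the lowest. Within each same-numbered pair Clec9a was higher in the Zeb2low array, by 0.10, 0.21 and 0.16. The sign of the difference of means turned when a pair was broken, without Zeb2hi array 2 (-0.087), without Zeb2low array 1 (-0.077), and also with arrays centred on their medians (-0.0054). Both pre-CD8 DC arrays lay above all CDP arrays, 4.17-fold over Zeb2hi CDPs (2.06 ± 0.33, adjusted p = 0.00468). The margin over Zeb2low CDPs, 1.90 ± 0.33, just missed the threshold (adjusted p = 0.0517). When each array was left out in turn, this margin ranged from 1.68 to 2.14 and passed in only 2 of 8 fits. Those fits lacked array 1 of the Zeb2hi group (0.0451) and array 1 of the Zeb2low group (0.0435), respectively.

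Xcr1 was below the 40th percentile of the array on all 6 CDP arrays. Its signals were 7.57 and 5.03 in pre-CD8 DCs, 4.09, 3.80 and 3.49 in Zeb2low CDPs, and 3.59, 3.61 and 3.52 in Zeb2hi CDPs. The pre-CD8 DC arrays were the highest 2 of the 8, yet they differed from each other by 2.54. The difference from Zeb2hi CDPs passed (2.72 ± 0.58, adjusted p = 0.0149). That from Zeb2low CDPs did not (2.51 ± 0.58, adjusted p = 0.116), nor did that between the CDP fractions (0.22 ± 0.52, adjusted p = 0.788, 95% interval -0.97 to 1.40). Signals this near the floor understate a difference, and the method gives no detection call.

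Cd36, a scavenger receptor for lipids and dying cells, had signals of 5.95 and 4.57 in pre-CD8 DCs, 2.89, 2.88 and 3.19 in Zeb2low CDPs, and 2.80, 2.39 and 2.52 in Zeb2hi CDPs. Both pre-CD8 DC arrays stood above the rest, and the CDP arrays were close to the lowest signals of the array. The log2 difference between pre-CD8 DCs and Zeb2low CDPs was 2.27 ± 0.35 (adjusted p = 0.0334), a value limited by the floor in Zeb2low CDPs. This call was lost in all 6 fits without 1 CDP array (adjusted p of 0.0566 without Zeb2hi array 1, 0.077 without array 2, 0.0729 without array 3, and 0.0822, 0.0932 and 0.111 without Zeb2low arrays 1, 2 and 3). Without either pre-CD8 DC array Cd36 and Xcr1 fell below the filter and were not tested. The block on replicate number ended the Cd36 call too (adjusted p = 0.0733).

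Gcsam, an adaptor that acts in signalling and motility of germinal centre B cells, had signals of 8.27 and 7.05 in pre-CD8 DCs, 5.24, 5.43 and 4.98 in Zeb2low CDPs, and 4.46, 4.82 and 4.26 in Zeb2hi CDPs. The groups were separate. The difference between the CDP fractions was 0.70 ± 0.30 (adjusted p = 0.145), which passed when the 6 CDP arrays were fitted alone with their numbers as pairs (adjusted p = 0.00736) and without pre-CD8 DC array 1 or 2 (adjusted p = 0.0435 and 0.0436). Gcsam was 5.44-fold higher in pre-CD8 DCs than in Zeb2low CDPs (2.44 ± 0.34, adjusted p = 0.0219). This call was lost without pre-CD8 DC array 1 (adjusted p = 0.0757), Zeb2hi array 2 (0.0521) or Zeb2low arrays 1 (0.0524), 2 (0.055) or 3 (0.103), and with the 8-array block (adjusted p = 0.103).

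Snx22, a sorting nexin with a phospholipid-binding PX domain, had signals of 6.87 and 5.07 in pre-CD8 DCs, 4.10, 4.41 and 4.12 in Zeb2low CDPs, and 4.31, 4.26 and 4.53 in Zeb2hi CDPs. It was the only member with a lower mean in Zeb2low than in Zeb2hi CDPs, where the arrays overlapped (-0.15 ± 0.38, adjusted p = 0.792). Its difference between pre-CD8 DCs and Zeb2hi CDPs passed (1.60 ± 0.43, adjusted p = 0.0333). Without pre-CD8 DC array 1 that difference was 0.70 (adjusted p = 0.0813), and the call was also lost without Zeb2hi array 1 (0.073), 2 (0.0967) or 3 (0.0749), without Zeb2low array 3 (0.054), and with the 8-array block (adjusted p = 0.0695). Its margin over Zeb2low CDPs was 1.76 ± 0.43 (adjusted p = 0.13). That margin was 2.66 with array 1 as the only pre-CD8 DC array and 0.85 with array 2 as the only one.

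The genes were described by the share of the whole log2 difference, from Zeb2hi CDPs to pre-CD8 DCs, that Zeb2low CDPs already showed. The share was 62.7% for Shtn1, 52.1% for Anpep, 51.1% for Wdfy4, 46.2% for Ckb and 44.4% for Naaa. It was 22.3% for Gcsam, 15.5% for Cd36, 7.94% for Xcr1, 7.65% for Clec9a and -9.68% for Snx22. For Xcr1, Cd36 and Snx22, at or under the filter level on nearly all CDP arrays, a share near 0 is largely set by the floor and gives no rank. When each array was left out in turn, the lowest share among the first 5 genes was 39.6% (Ckb) and the highest among the others 27.7% (Gcsam). These shares use the brighter Wdfy4 probe set. The dimmer one, at 0.80 between the CDP fractions of a whole difference of 2.18, had a share below 39.6%. Within the first 5 the ranges of Anpep (49.9% to 54.5%), Wdfy4 (46.4% to 56.8%) and Ckb (39.6% to 52.0%) overlapped. That of Shtn1 (57.8% to 65.6%) lay above that of Anpep. The ranges of Gcsam (18.7% to 27.7%) and Cd36 (11.8% to 20.9%) overlapped too. Anpep and Shtn1 were each above the filter level on only 1 of 3 Zeb2hi arrays, unlike Wdfy4, Ckb and Naaa. The floor may thus understate their differences between the CDP fractions and their shares. The order among the first 5 is therefore not taken as a rank. No test between genes was run.

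Whether a gene moved more in one step than in the other was tested directly, as the Zeb2low minus Zeb2hi difference less the pre-CD8 minus Zeb2low difference. No member passed after limma's adjustment (0 of 10, where 0.127% of all genes had a larger difference between the CDP fractions, 0.255% a smaller one and 0.382% either), while 6 of 10 had an unadjusted p under 0.05, against 17.8% of all genes. The test left Clec9a at -1.74 ± 0.53 (adjusted p = 0.155), Cd36 at -1.85 ± 0.56 (0.154), Gcsam at -1.74 ± 0.54 (0.161), Snx22 at -1.91 ± 0.69 (0.207) and Xcr1 at -2.29 ± 0.94 (0.252). Cd36, Snx22 and Xcr1, which are among the 6, would not have passed the filter without the pre-CD8 DC arrays. Negative values for these genes, in this fit and without 1 array, were thus partly fixed by the filter and the floor. Shtn1 leaned the other way (1.18 ± 0.45, adjusted p = 0.226). With array 1 as the only pre-CD8 DC array the value was -2.81 for Snx22 and -2.35 for Gcsam. With array 2 as the only one it was -1.01 and -1.13. A group of 1 array has no spread of its own. For Anpep (0.21 ± 0.29), Wdfy4 (0.05 ± 0.34), Naaa (-0.46 ± 0.34) and Ckb (-0.28 ± 0.44) the steps differed by less than 2 standard errors.

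**Figure D2:**
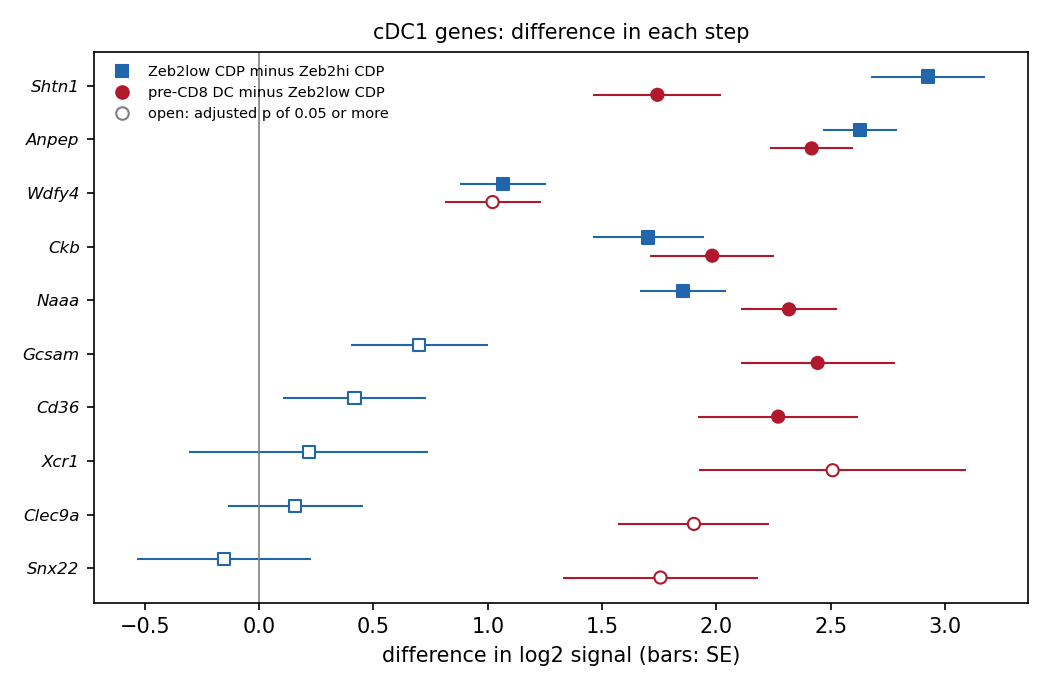
Difference in log2 signal (x axis) of each gene for Zeb2low minus Zeb2hi CDPs (squares) and for pre-CD8 DCs minus Zeb2low CDPs (circles), with limma's SE as bars and filled symbols for an adjusted p under 0.05. Genes run down the page by the share of the whole difference shown in Zeb2low CDPs, 62.7% for Shtn1 at the top and -9.68% for Snx22 at the bottom.

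Arrays of the groups did not overlap for 7 of 10 genes between Zeb2low and Zeb2hi CDPs, where 20.2% of all genes were separate and higher. They did not overlap for 10 of 10 between pre-CD8 DCs and Zeb2low CDPs (12.4% of all genes) and for 10 of 10 between pre-CD8 DCs and Zeb2hi CDPs (21.4% of all genes). Both counts of 10 include Xcr1, Cd36 and Snx22, which would not have passed the filter without the pre-CD8 DC arrays. Their separation from the CDPs was thus partly fixed by the filter. The median difference of the 10 genes was 0.88 between the CDP fractions, 2.13 between pre-CD8 DCs and Zeb2low CDPs and 2.93 between pre-CD8 DCs and Zeb2hi CDPs, against 0.03, -0.03 and -0.02 over all genes. These comparisons share arrays.

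The pre-CD8 DC arrays differed by more than 1 for 4 of the 10 genes. Array 1 exceeded array 2 by 2.54 for Xcr1, 1.80 for Snx22, 1.38 for Cd36 and 1.22 for Gcsam, and by 0.23 to 0.45 for Clec9a, Wdfy4, Naaa and Anpep. For Shtn1 (-0.12) and Ckb (-0.31) array 2 was higher. Over all genes 4.99% were higher on array 1 by more than 1 and 1.1% on array 2.

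Markers of other cells also differed between these arrays, of which 5 are named after their values were seen. Macrophage genes were higher on pre-CD8 DC array 1 than on array 2, with C1qa at 7.16 against 4.49, C1qb at 6.48 against 4.49 and Adgre1 at 6.07 against 5.13, and so were the neutrophil genes Mmp8 (11.59 against 7.28) and Cxcr2 (10.70 against 6.68). The mean log2 signal of 12 neutrophil genes was 11.94 and 10.47 in pre-CD8 DCs, 9.96 to 11.60 in Zeb2low CDPs and 9.39 to 10.63 in Zeb2hi CDPs. Although these means overlapped, the median difference of the 12 between the CDP fractions was 1.46, with 9 of 12 positive. It was 0.51 between pre-CD8 DCs and Zeb2low CDPs and 1.89 between pre-CD8 DCs and Zeb2hi CDPs. The same medians of the 10 cDC1 genes were 0.88, 2.13 and 2.93. Of these 12, 3 were higher and 1 lower in Zeb2low than in Zeb2hi CDPs (4.5% and 10.3% of all genes), and 4 were higher and 1 lower in pre-CD8 DCs than in Zeb2hi CDPs (6.51% and 11.1%). The 8-array block kept 2 of these 4 calls between the CDP fractions and 2 of 5 between pre-CD8 DCs and Zeb2hi CDPs. The mean of 9 monocyte and macrophage genes was 6.72 and 5.65 in pre-CD8 DCs, 5.997 to 6.42 in Zeb2low CDPs and 5.93 to 6.12 in Zeb2hi CDPs, and F13a1 alone passed, as lower in pre-CD8 DCs and in Zeb2low CDPs than in Zeb2hi CDPs. Zeb2low array 2 had Mmp8 at 11.18, Cxcr2 at 10.54 and C1qb at 6.07. In sorted bulk samples a change in the share of a cell type and a change of RNA per cell cannot be told apart.

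**Figure D3:**
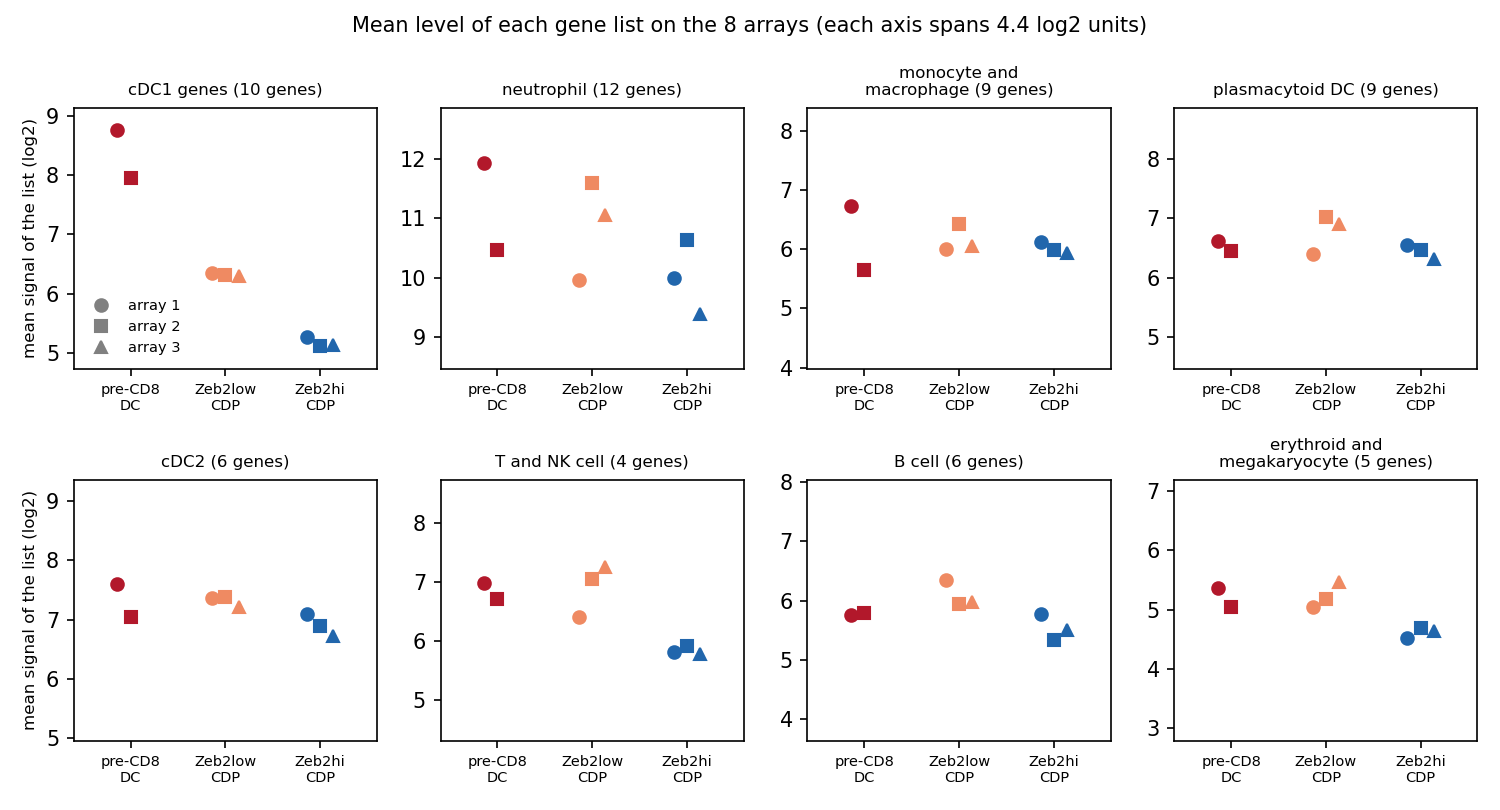
Mean log2 signal of each gene list on each array (y axis), by group (x axis), for the 10 cDC1 genes and 7 marker lists. Points are arrays, and each panel spans the same log2 range. The cDC1 genes lie at 8.76 and 7.95 in pre-CD8 DCs, 6.29 to 6.35 in Zeb2low CDPs and 5.11 to 5.26 in Zeb2hi CDPs. The neutrophil list means of the 3 groups overlap, although the median difference of these genes between the CDP fractions was 1.46.

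Markers of other lineages were partly higher in Zeb2low than in Zeb2hi CDPs too, where 4.5% of all genes were higher and 10.3% lower. The list means of T and NK cell genes (6.41 to 7.26 in Zeb2low against 5.79 to 5.92 in Zeb2hi CDPs), B cell genes (5.93 to 6.34 against 5.33 to 5.77), cDC2 genes (7.21 to 7.39 against 6.72 to 7.10) and erythroid and megakaryocyte genes (5.04 to 5.46 against 4.52 to 4.69) did not overlap between the CDP fractions. The mean of 9 plasmacytoid DC genes was 6.63 and 6.45 in pre-CD8 DCs, 6.41 to 7.02 in Zeb2low CDPs and 6.31 to 6.55 in Zeb2hi CDPs, with 5 of 9 higher and 1 lower in Zeb2low than in Zeb2hi CDPs, of which the 8-array block kept 3. Of 6 cDC2 genes 1, Cd209a, was higher in Zeb2low than in Zeb2hi CDPs (0.69 ± 0.15, adjusted p = 0.0176). It was also higher in pre-CD8 DCs than in Zeb2hi CDPs (1.43 ± 0.16, adjusted p = 0.00118), with 3 separate levels. Ccr9 of the plasmacytoid DC list and Itgax of the DC progenitor list had 3 separate levels too. Of 4 T and NK cell genes 2 were higher in Zeb2low than in Zeb2hi CDPs (1 with the 8-array block), of 6 B cell genes 2 were higher and 1 lower, and of 5 erythroid and megakaryocyte genes 0 passed in limma (3 at an unadjusted p under 0.05). Of 7 genes on the DC progenitor list 3 were higher, Il7r, Itgax and Siglech, the last of which is also on the plasmacytoid DC list. Only 4 of the 7 had a positive difference. Csf1r (-0.96 ± 0.29, adjusted p = 0.0562) and Cd34 (-1.45 ± 0.44, adjusted p = 0.0577) were lower in Zeb2low CDPs but did not pass. The list as a whole thus did not move in 1 direction. Between pre-CD8 DCs and Zeb2low CDPs, where 0.217% of all genes were lower, 1 gene of these lists passed. It was the plasmacytoid DC gene Cox6a2, which was lower (-1.98 ± 0.27, adjusted p = 0.0219). That call held in 3 of 8 fits without 1 array and was lost with the 8-array block (adjusted p = 0.118). The part of these cells in the differences above was not tested beyond the values given.

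Other genes known from cDC1s were read from a list of 24, of which 20 were tested. Of these 9 were higher and 0 lower in Zeb2low than in Zeb2hi CDPs (4.5% of all genes higher), 2 were higher and 0 lower in pre-CD8 DCs than in Zeb2low CDPs (0.337%), and 16 were higher and 0 lower in pre-CD8 DCs than in Zeb2hi CDPs (6.51%). Their median difference was 0.67 between the CDP fractions and 0.73 between pre-CD8 DCs and Zeb2low CDPs. Tlr3, the endosomal sensor of double-stranded RNA, passed in both and did so in all 8 fits without 1 array. Its signals were 9.19 and 9.31 in pre-CD8 DCs, 7.30, 7.22 and 7.07 in Zeb2low CDPs, and 3.84 to 4.08 in Zeb2hi CDPs. Ifi205 belongs to an interferon-inducible family of closely similar genes, so its probes may read its relatives too. Its signals were 10.41 and 10.53 in pre-CD8 DCs, 9.27 to 9.83 in Zeb2low CDPs and 4.43 to 4.69 in Zeb2hi CDPs. Its difference between the CDP fractions exceeded that between pre-CD8 DCs and Zeb2low CDPs (by 4.01 ± 0.31, adjusted p = 0.00652), and it was the 1 gene of the 20 to pass that test. Rab7b, a GTPase of endosome traffic, was 2.72-fold higher in Zeb2low than in Zeb2hi CDPs (1.44 ± 0.15, adjusted p = 0.00169). Its difference between pre-CD8 DCs and Zeb2low CDPs (1.16 ± 0.17, adjusted p = 0.0269) passed in 1 of 8 fits without 1 array, the one without Zeb2hi array 1, and was lost with the 8-array block (adjusted p = 0.0883).

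Rab43, a GTPase with a role in cross-presentation by mouse cDC1s, was higher in Zeb2low than in Zeb2hi CDPs (1.16 ± 0.21, adjusted p = 0.0106). Leaving out Zeb2hi array 3 ended that call (adjusted p = 0.053). Ppt1 and Cd8a are named after their values were seen. Ppt1, a lysosomal thioesterase, averaged 10.32 in pre-CD8 DCs, 8.72 in Zeb2low CDPs and 8.64 in Zeb2hi CDPs. Its difference between pre-CD8 DCs and Zeb2low CDPs just missed the threshold (1.60 ± 0.28, adjusted p = 0.0501). Cd8a, the surface marker that gives the CD8 DC its name, had signals of 6.61 and 5.43 in pre-CD8 DCs, 5.57, 5.32 and 5.16 in Zeb2low CDPs, and 4.99, 4.99 and 4.79 in Zeb2hi CDPs. It passed only against Zeb2hi CDPs (1.10 ± 0.31, adjusted p = 0.0393), a call that held in 2 of 8 fits without 1 array and was weakest without pre-CD8 DC array 1 (adjusted p = 0.182). Itgae, Cd207 and Il12b were annotated but below the filter, with signals of at most 4.34, 4.25 and 4.16 on any array, and Tlr11 had no probe set of its own.

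**Figure D4:**
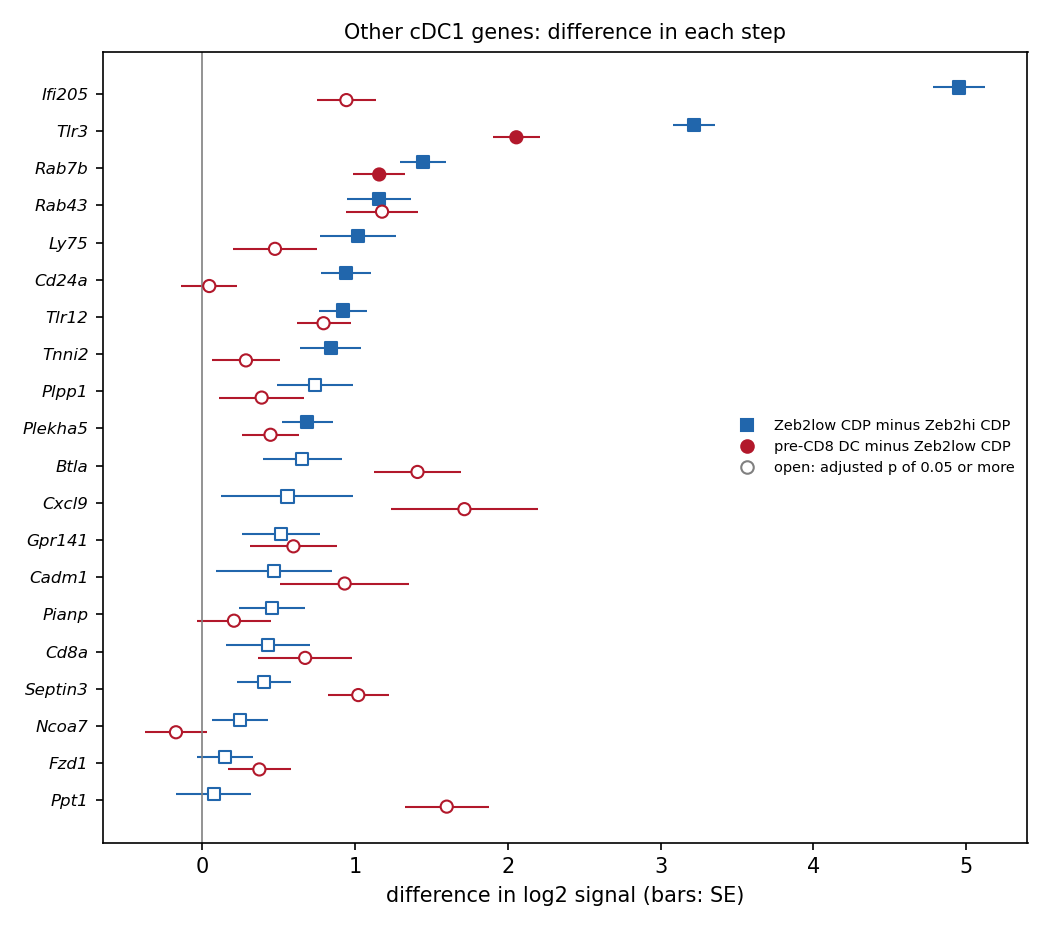
Difference in log2 signal (x axis) of 20 other cDC1 genes for Zeb2low minus Zeb2hi CDPs (squares) and for pre-CD8 DCs minus Zeb2low CDPs (circles), with limma's SE as bars and filled symbols for an adjusted p under 0.05. Tlr3 and Rab7b are filled in both, and Ppt1 at the bottom has nearly all of its difference between pre-CD8 DCs and Zeb2low CDPs.

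Of 6 cDC1 transcription factor genes 5 were higher in Zeb2low than in Zeb2hi CDPs (4.5% of all genes). The 8-array block kept 4 and ended the Zbtb46 call. Between pre-CD8 DCs and Zeb2low CDPs 0 of 6 passed in limma (4 at an unadjusted p under 0.05). Of those 4, Nfil3 was lower in pre-CD8 DCs (-0.82 ± 0.23, adjusted p = 0.175). Its means were 8.03 in pre-CD8 DCs, 8.86 in Zeb2low CDPs and 7.66 in Zeb2hi CDPs. Against Zeb2hi CDPs 4 of 6 were higher in pre-CD8 DCs (6.51% of all genes). Id2 averaged 10.49 in pre-CD8 DCs, 10.07 in Zeb2low CDPs and 5.73 in Zeb2hi CDPs. Batf3 averaged 8.56 in pre-CD8 DCs, 7.63 in Zeb2low CDPs and 6.06 in Zeb2hi CDPs, and Irf8 averaged 10.37, 9.72 and 10.32 in the same groups.

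The genes outside the list whose signal over the 8 arrays was most like that of Xcr1 were Gpr141b (Pearson r = 0.988), Ppm1m (0.974), Rasgrp3 (0.973), Cxcl9 (0.968) and Plin2 (0.966), among 5529 genes with a range of at least 1. Gpr141b averaged 6.80 in pre-CD8 DCs, 3.53 in Zeb2low CDPs and 3.36 in Zeb2hi CDPs. Those most like Clec9a were Eps8 (0.983), Scimp (0.975), Usp18 (0.966), Cbr3 (0.965) and Prss30 (0.956). Among the members, Xcr1 was most like Snx22 (r = 0.971) and Cd36 (0.956), and Naaa was most like Anpep (0.993) and Ckb (0.967), while Snx22 and Shtn1 were the least alike (0.542). These values describe 8 arrays in which 3 groups and the difference between the pre-CD8 DC arrays carry most of the variation.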

How the data were processed

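Sorted marrow populations were measured on 2 pre-CD8 DC, 3 Zeb2low CDP and 3 Zeb2hi CDP arrays, grouped by sample title. The RNA was amplified with a whole-transcriptome kit for small inputs, per the labels' protocols. The authors deposited 1 linear intensity for each probe set and array. The submitters' processing notes name RMA and Affymetrix Expression Console; the sources used here give no version or genome build. RMA gives no detection call and compresses differences near the floor. Precision is limited by the number of arrays.

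The 28853 intensities per array were log2 transformed. The annotation gave 1 gene for 21789 probe sets; 1621 with several genes and 5443 unnamed here were left out. Probe sets above the array's 40th percentile on at least 2 arrays were kept, with the brightest probe set per gene (13356 genes). limma 3.58.1 in R 4.3.3 fitted all 8 arrays in 1 model (5 residual degrees of freedom), two-sided, with Benjamini-Hochberg adjustment over all genes. The fit was tested on simulated data. Values after ± are SE for differences.

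Same-numbered Zeb2low and Zeb2hi arrays deviated together (r = 0.478, 0.407 and 0.308). The main fit did not use this pairing. The replicate number entered only as a block in alternative fits, a choice made from the values and not the labels. Members, lists and tests were chosen with earlier results of these data known. Named genes were all 10 members, up to 4 calls per list and direction, and the 5 genes most like Xcr1 and Clec9a; not all are printed. Alternatives covered the filter, probe set choice, normalization, variance model, block and each array left out. Promoters came from RefSeq (GRCm38.p6).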

Additional observations from a re-analysis of the deposited data

How the results depend on the processing

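The 5 members higher in Zeb2low than in Zeb2hi CDPs (Anpep, Shtn1, Naaa, Ckb and Wdfy4) passed under all 10 settings and in all 8 fits without 1 array, with a count of 5 to 6 when Gcsam joined them. Pre-CD8 DCs against Zeb2low CDPs was the least stable comparison. Its 6 members became 2 with only the groups compared in the fit and 2 with the replicate block over all arrays, and 2 to 6 without 1 array (2 without pre-CD8 DC array 1, Zeb2hi array 2 or Zeb2low array 3, and 3 without Zeb2low array 2); its genes called over all genes, 74, became 16 and 15 under those settings and 20 to 117 without 1 array. Against Zeb2hi CDPs the 10 members became 7 to 10 without 1 array (7 without pre-CD8 DC array 1, where Xcr1 and Cd36 were not tested) and 7 under the stricter filter, which removed Xcr1, Snx22 and Cd36, while the 2352 genes called became 1173 to 2779 without 1 array. The Zeb2low against Zeb2hi calls, 1978, became 4467 with array weights, 4070 with the replicate block over the CDP arrays and 532 to 2222 without 1 array. The difference of steps, 51 genes, became 30 without a filter, 25 under the stricter one, 14 after quantile normalization, 131 with arrays centred on their medians, 375 with array weights, 1 with the replicate block over all arrays and 0 to 328 without 1 array; its members stayed at 0, or 0 to 2 without 1 array. Signs turned only for differences near 0: that of steps for Wdfy4 (-0.21 with centred arrays) and Anpep (-0.042), and Clec9a between the CDP fractions (-0.0054); without 1 array, that of steps ranged from -0.17 to 0.26 for Wdfy4, -0.014 to 0.44 for Anpep and -0.77 to 0.15 for Ckb, and Clec9a from -0.087 to 0.42. Of the single differences of members, 590 kept direction and side of the threshold, 38 lost and 13 gained a call and 11 turned. Quantile normalization ended the calls of Shtn1 over Zeb2low CDPs (adjusted p = 0.0583) and Snx22 over Zeb2hi CDPs (adjusted p = 0.0534). The replicate block ended no other member call than those given above. The cause of these changes was not tested. With 2 pre-CD8 DC arrays that differ in Xcr1, Snx22, Cd36 and Gcsam, the spread of that group limits each comparison that uses it.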

Other observations

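Relatives of the 10 genes were read from a list of 29 genes of the same families or pathways, of which 24 were tested. Between Zeb2low and Zeb2hi CDPs 7 were higher (4.5% of all genes) and 1, the inhibitory lectin Clec12a, was lower (10.3% of all genes). The 8-array block on replicate number kept 4 of these 8 calls and ended those of Clec12a (adjusted p = 0.0657), Ccr9, Olr1 and Faah. Between pre-CD8 DCs and Zeb2low CDPs 0 of 24 passed in limma (7 at an unadjusted p under 0.05). The BEACH-domain genes Lyst and Lrba, relatives of Wdfy4, were higher in Zeb2low than in Zeb2hi CDPs in all 8 fits without 1 array (1.65 ± 0.29, adjusted p = 0.00965, and 1.18 ± 0.20, adjusted p = 0.0078). Lyst, which acts in lysosome traffic, had signals of 9.52 and 8.66 in pre-CD8 DCs, 8.46, 9.26 and 8.57 in Zeb2low CDPs, and 7.43, 7.08 and 6.82 in Zeb2hi CDPs. Of the other genes on that list of 29, not all of which hold a BEACH domain, 5 are named after their values were seen. Wdfy1, Wdfy2, Wdfy3, Nbeal2 and Nsmaf did not pass between the CDP fractions. Wdfy3 had a difference of 0.62 ± 0.18 there (adjusted p = 0.0522). Wdfy3 (0.75, adjusted p = 0.036) and Nsmaf (0.67, adjusted p = 0.0239) were higher in pre-CD8 DCs than in Zeb2hi CDPs, calls that were lost with the block (adjusted p = 0.0743 and 0.0552).

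Among sorting nexins, Snx21 was higher in Zeb2low than in Zeb2hi CDPs (1.20 ± 0.23, adjusted p = 0.0123, lost without Zeb2hi array 2 with an adjusted p of 0.0605), where Snx22 was not. Snx20 and Snx16 are named after their values were seen. Snx20 was also higher there (0.64 ± 0.17, adjusted p = 0.0379), a call that held in 3 of 8 fits without 1 array and with the 8-array block. Snx16 did not pass there (0.05 ± 0.16, adjusted p = 0.853). Olr1, a lectin scavenger receptor, was higher there too (1.43 ± 0.34, adjusted p = 0.0261), a call that held in 3 of 8 fits without 1 array. The scavenger receptor genes Scarb1 and Scarb2, relatives of Cd36, passed in none of the comparisons, nor did Asah1, a relative of Naaa, or the creatine kinase Ckm and the creatine transporter Slc6a8.

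Of 15 tested genes of uptake and cross-presentation, 1 was higher and 2 lower in Zeb2low than in Zeb2hi CDPs (4.5% and 10.3% of all genes). The higher one was Cd74, the invariant chain of MHC class II, with signals of 12.47 and 12.44 in pre-CD8 DCs, 9.63 to 10.64 in Zeb2low CDPs and 4.75 to 5.93 in Zeb2hi CDPs. Cd74 was also the 1 gene of the 15 that passed between pre-CD8 DCs and Zeb2low CDPs, where 0.337% of all genes were higher. Its log2 difference there was 2.202 ± 0.37 (adjusted p = 0.0472), a call that held in 1 of 8 fits without 1 array and was lost with the 8-array block (adjusted p = 0.0605). The lower ones were Sec22b, a SNARE protein (-0.67 ± 0.15, adjusted p = 0.0204), and Hspa5, a chaperone of the endoplasmic reticulum (-1.11 ± 0.20, adjusted p = 0.00962). The Sec22b call ended when Zeb2hi array 2 (adjusted p = 0.0863), Zeb2hi array 3 (0.0811) or Zeb2low array 2 (0.0502) was left out.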
